A study of Coccomyxa subellipsoidea C-169 with 6 samples.

Results

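COCSUDRAFT_53735 is the gene that the deposited tables name Plastid acyl-ACP desaturase, 1 gene of 9490 listed. It was chosen by its locus tag, with its level, its rank among all genes and its change between the groups already known, so these values are given as a description and carry no test. Messenger RNA was sequenced from 6 cultures of the green alga Coccomyxa subellipsoidea C-169, which is single-celled and was first isolated in Antarctica. In 3 libraries the genotype is labelled as an overexpressor, CsubMADS1 OX, and these are called OX-labelled. The other 3 are wild type (WT). All cultures were in stationary phase and were harvested 3 hours before dark, and the labels call the 3 samples of each group biological replicates. The labels do not say how many transformed lines the OX-labelled cultures came from, nor which promoter drove the transgene.

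Acyl-ACP desaturases are soluble plastid enzymes that put the first double bond into a saturated fatty acid while it is still bound to acyl carrier protein (ACP), the small protein that holds the chain during its synthesis. The reaction typically turns a stearoyl chain into an oleoyl chain at a di-iron centre, takes its electrons from reduced ferredoxin and uses oxygen. Membrane-bound desaturases, which belong to an unrelated protein family, then add further double bonds to chains already placed in lipids. In plants and algae the enzyme thus stands between fatty acid synthesis on ACP and the assembly of membrane and storage lipids.

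Total counts ran from 3862791 to 5336375 in the OX-labelled libraries and from 3771499 to 4953851 in WT. The gene with a MADS-box product name was not higher in the OX-labelled libraries. COCSUDRAFT_67545, the gene with a MADS-box product name, had 68.5, 59.0 and 54.8 TMM-scaled CPM (counts relative to the library total, corrected for composition) in the OX-labelled libraries, against 95.3, 80.2 and 85.0 CPM in WT (log2 fold change -0.51, SE 0.18, edgeR adjusted p = 0.0535). Its identity with CsubMADS1 rests on that product name alone, and directions given here are those of the labels. All its OX-labelled values lay below all its WT values, as was so for 19.8% of all tested genes. Its fold change was negative in all 13 other settings and passed in 5 of them, with adjusted p-values from 0.0295 with library size only in edgeR to 0.168. The second principal component (19.6% of variance) set OX-labelled replicate 3 off from the rest of its group.

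The desaturase gene was among the most heavily read genes of both groups and took a smaller share of the reads in the OX-labelled cultures. It had 17028, 19462 and 12350 counts in OX-labelled replicates 1, 2 and 3, against 34032, 30911 and 24727 counts in WT replicates 1, 2 and 3. As a share of all counts, that was 0.319%, 0.412% and 0.32% in the OX-labelled libraries, against 0.687%, 0.663% and 0.656% in WT. The 3 OX-labelled libraries all lay below the 3 WT libraries. The exact 95% counting interval was 0.314% to 0.324% in OX-labelled replicate 1 and 0.68% to 0.694% in WT replicate 1. Within groups, the intervals of OX-labelled replicates 1 and 3 overlapped (0.314% to 0.325% in replicate 3), as did those of WT replicates 2 and 3 (0.656% to 0.671% and 0.648% to 0.664%). The intervals of OX-labelled replicate 2 (0.406% to 0.418%) and of WT replicate 1 lay apart from the rest of their groups. Counting intervals thus do not cover the spread between replicates.

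On the TMM scale the gene stood at 3340, 4362 and 3105 CPM in the OX-labelled libraries, against 6845, 6510 and 6253 CPM in WT. The mean was 3602 ± 669 CPM in the OX-labelled libraries and 6536 ± 297 CPM in WT (SD, n = 3 each). OX-labelled replicate 2 was the highest of its group and still held 0.698 times the level of the lowest WT library. For this gene the OX-labelled cultures differed more among themselves, with a coefficient of variation of 18.6%, against 4.54% in WT. A wider spread in the OX-labelled group was also seen over the genes as a whole. There, chi-square per degree of freedom between pairs of libraries was 18.7 to 37.4 in the OX-labelled group, against 6.97 to 10.3 in WT. The highest values were those of pairs with OX-labelled replicate 3 (37.1 and 37.4), while for the desaturase gene replicate 2 stood apart. Whether its spread has the same source was not tested. In bulk RNA, fewer cells with the transcript and less transcript per cell cannot be told apart.

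**Figure D1:**
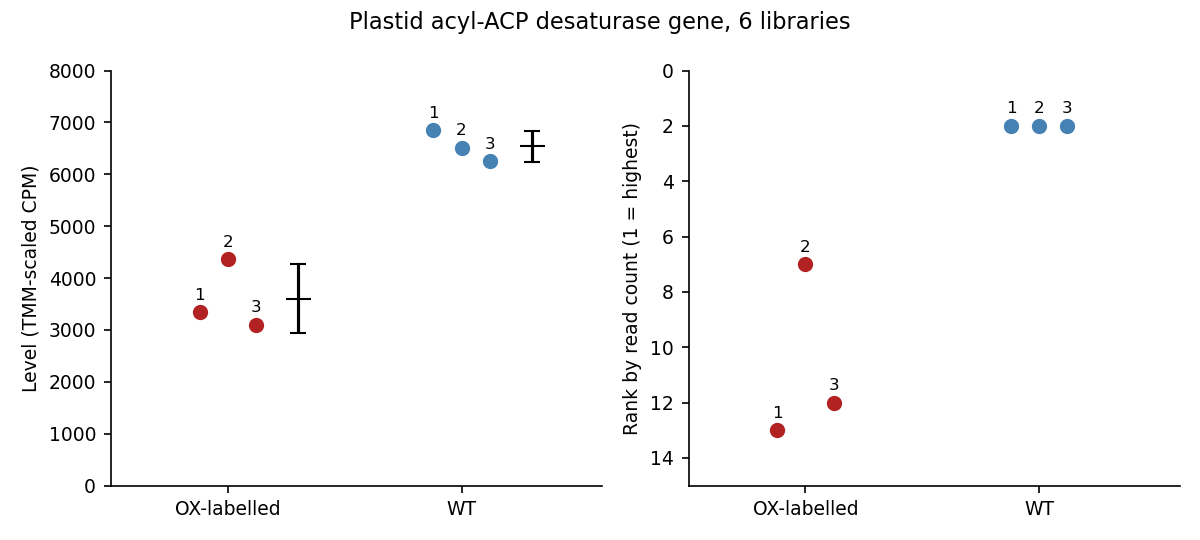
Level of the acyl-ACP desaturase gene (left, TMM-scaled CPM, bars show mean ± SD) and its rank by read count among all listed genes (right, 1 at the top), with 1 point per library and the replicate number above it. The OX-labelled libraries sit between 3105 and 4362 CPM at ranks 7 to 13, and the WT libraries between 6253 and 6845 CPM at rank 2.

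The log2 fold change of the desaturase gene was -0.86 (SE 0.19) in the edgeR fit of all genes, a ratio of means of 0.551. Without OX-labelled replicate 2 it was -1.02 and without OX-labelled replicate 3 it was -0.76. In that fit 24.6% of the genes were called in either direction, and 8.98% of the 8575 tested genes were called lower in the OX-labelled libraries, and for 19.8% all OX-labelled libraries lay below all WT libraries. The desaturase gene belongs to both sets, and nothing is read from that, since it was chosen with this contrast known. Of the tested genes, 332 (3.87%) had a lower log2 fold change. Among 104 tested genes with at least 1000 CPM in WT, 66 had a log2 fold change below 0. The median of the 104 was -0.33, and 20 lay below the desaturase gene. This set was picked by WT level alone, which by itself favours genes that are lower in the OX-labelled libraries. Whether heavily read genes were lower in general was thus not tested.

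Measured in CPM, its difference of -2933 (OX-labelled minus WT) was the second lowest of all listed genes. The metallo-hydrolase/oxidoreductase gene COCSUDRAFT_67338 had the lowest, with 2129 ± 396 CPM in the OX-labelled libraries and 6046 ± 207 CPM in WT (SD, n = 3 each).

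By read count the desaturase gene ranked 13, 7 and 12 in OX-labelled replicates 1, 2 and 3, and 2 in each WT library. These ranks compare shares of reads and not numbers of transcripts, because longer genes collect more reads. In the OX-labelled group its mean placed it at rank 8, in a crowded stretch of genes with wide spread. Just above it stood translation elongation factor EF-3, COCSUDRAFT_47721, with 2451, 6016 and 3371 CPM, and the uncharacterized gene COCSUDRAFT_53613 with 2925, 2961 and 5440 CPM. Just below it stood the uncharacterized gene COCSUDRAFT_52570 with 3988, 4822 and 1759 CPM, and COCSUDRAFT_65904, an antenna protein that binds chlorophyll, with 4215, 3338 and 2841 CPM. The libraries of each of these 4 genes overlapped those of the desaturase gene, so its place within this stretch is not resolved.

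In WT the place of the desaturase gene was sharper, at rank 2 in each library. The cold-shock domain gene COCSUDRAFT_45992, of a family that binds nucleic acids, stood above it at 11355, 10419 and 10869 CPM, with no overlap. EF-3 at 6439, 5989 and 6096 CPM and the metallo-hydrolase/oxidoreductase gene at 6277, 5880 and 5981 CPM followed. Across libraries the values of both overlapped those of the desaturase gene, but within each WT library both stood below it. For each read of the cold-shock domain gene there were 0.391, 0.69 and 0.327 reads of the desaturase gene in the OX-labelled libraries, against 0.603, 0.625 and 0.575 in WT. This ratio overlapped between the groups because OX-labelled replicate 2 held the highest value of all.

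Scaled to gene length, the desaturase gene stood less high. The length used was the annotated span of the gene with introns in assembly GCF_000258705.1, so that intron-rich genes are set too low on this scale. It had 1202, 1568 and 1314 TPM (a share of all reads after division by length) on this scale in the OX-labelled libraries, against 2689, 2518 and 2536 TPM in WT. Its rank per span was 104, 69 and 75 in the OX-labelled libraries and 19, 23 and 18 in WT. Among the genes of the fatty acid lists below it was the highest in WT by mean on this scale. In the OX-labelled libraries ferredoxin COCSUDRAFT_25236 was higher, with a mean of 2870 TPM per span against 1361 for the desaturase gene.

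The rest of fatty acid metabolism was laid out in 7 lists of 95 genes by product name, ordered by their step around the desaturase. Of the 89 members tested, 13 passed the edgeR test as higher in OX-labelled libraries and 5 as lower, at a Benjamini-Hochberg threshold of 0.05. Among all tested genes 15.6% were higher and 8.98% lower, so neither count of members exceeds the background. Their median log2 fold change was 0.08, against 0 over all tested genes, and 2 of the 89 lay below the desaturase gene. With library size only as scaling, 11 were higher and 6 lower, and over all genes 1140 were higher and 995 lower in place of 1337 and 770. Lower calls numbered 1 without WT replicate 1, and 2 each when OX-labelled replicate 1, WT replicate 2 or WT replicate 3 was left out. Lower calls over all genes fell too, from 770 to 313, 414, 414 and 385 in the same order. The higher calls were 8 without WT replicate 1, where those over all genes were 737 in place of 1337.

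**Figure D2:**
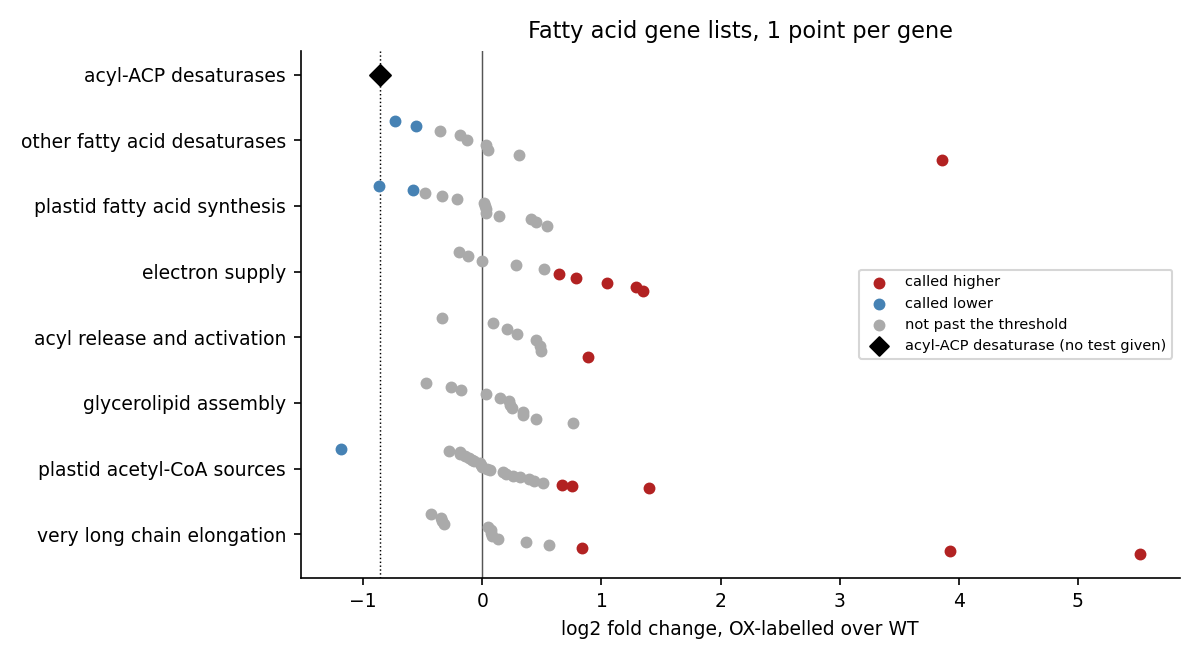
Log2 fold change (OX-labelled over WT) of each tested gene in the fatty acid lists, 1 point per gene, with the acyl-ACP desaturase gene as a diamond and a dotted line at its value of -0.86. Most genes lie near 0, and 2 of the 89 other genes lie left of the line.

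Upstream of the desaturase lie the enzymes that build the chain on ACP. The synthesis list goes by product name, and whether each member works in the plastid was not tested. Of 13 tested synthesis genes, 0 were called higher, 2 lower and 11 did not pass, with a median log2 fold change of 0.02, against 15.6% higher and 8.98% lower among all tested genes. As higher, 1 had an unadjusted p under 0.05 in edgeR, and DESeq2 and limma-voom called 0. Without OX-labelled replicate 3, edgeR called 2 of the synthesis genes higher. The beta-ketoacyl-ACP synthase III gene COCSUDRAFT_54940, whose enzyme type starts the chain by joining acetyl-CoA to malonyl-ACP, had 58.6, 62.5 and 37.2 CPM in the OX-labelled libraries, against 99.0, 79.2 and 113 CPM in WT (log2 fold change -0.87, SE 0.23, edgeR adjusted p = 0.0158). It did not pass without WT replicate 1 (edgeR adjusted p = 0.0504) or without WT replicate 3 (edgeR adjusted p = 0.0637).

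The files list a pair of genes named for ACP, the protein that carries the chain the desaturase acts on. Whether either of the pair serves the desaturase in the plastid was not tested. COCSUDRAFT_52715 had 605, 697 and 563 CPM in the OX-labelled libraries, against 1026, 970 and 783 CPM in WT (log2 fold change -0.58, SE 0.18, edgeR adjusted p = 0.0385). COCSUDRAFT_53954 had 451, 376 and 363 CPM in the OX-labelled libraries, against 380, 418 and 375 CPM in WT, which overlap (log2 fold change 0.02, SE 0.17). That small value turned negative in 6 of the other settings, among them library size only as scaling. The ratio of COCSUDRAFT_52715 to COCSUDRAFT_53954 counts was 1.34, 1.85 and 1.55 in the OX-labelled libraries, against 2.7, 2.32 and 2.09 in WT. The groups did not overlap (two-sided exact permutation p = 0.1, the smallest that 3 against 3 libraries can give). This ratio restates the values of the pair given above and adds no support. The call for COCSUDRAFT_52715 did not hold without OX-labelled replicate 1 (edgeR adjusted p = 0.0963), without WT replicate 1 (edgeR adjusted p = 0.132) or without WT replicate 2 (edgeR adjusted p = 0.118).

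Reads of the desaturase gene were also set against reads of the pathway within each library, a ratio that needs no scaling between libraries. For each read of all 13 synthesis genes there were 1.22, 1.57 and 1.14 desaturase reads in the OX-labelled libraries, against 2.05, 2.08 and 2.13 in WT. All 3 OX-labelled ratios lay below all WT ratios. Per gene span the ratio was below 1 in every library, at 0.442, 0.597 and 0.471 in the OX-labelled libraries, against 0.795, 0.755 and 0.834 in WT. Which of them is larger thus depends on length, while the groups stay apart on both scales. Nothing further is read from that, since every ratio holds the lower desaturase count that was known when the gene was chosen. Gene by gene, the desaturase ratio lay lower in all OX-labelled libraries for 79 of the 86 list genes with at least 10 counts in every library, and higher in all of them for 0. Over all tested genes with such counts the shares were 71.8% and 0.409%, so much of this count goes with the lower level of the desaturase gene itself. Of the 13 synthesis genes the ratio overlapped between groups for 3, one of them the synthase III gene.

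**Figure D3:**
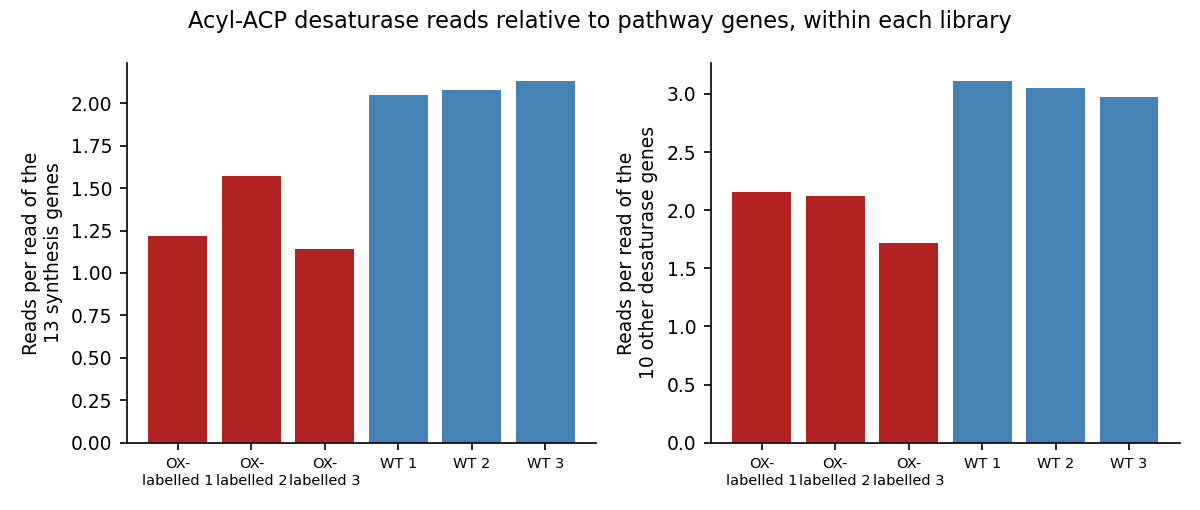
Reads of the acyl-ACP desaturase gene for each read of the 13 synthesis genes (left) and of the 10 other desaturase genes (right), 1 bar per library. The OX-labelled bars reach 1.14 to 1.57 on the left and 1.72 to 2.16 on the right, below all WT bars at 2.05 to 2.13 and 2.97 to 3.11. Every bar holds the desaturase count that was known when the gene was chosen, so the separation is a description.

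Downstream of it are the other desaturases, most of them membrane-bound. Of 9 tested genes in that list, 1 was called higher and 2 lower, with a median log2 fold change of -0.13, against 15.6% higher and 8.98% lower among all tested genes. For each read of the 10 listed genes there were 2.16, 2.12 and 1.72 reads of the acyl-ACP desaturase gene in the OX-labelled libraries, against 3.11, 3.05 and 2.97 in WT. As above, this ratio holds the desaturase count that was known when the gene was chosen. The omega-3 fatty acid desaturase COCSUDRAFT_67054, which adds the last double bond of a trienoic chain, was lower together with it, at 256, 437 and 389 CPM in the OX-labelled libraries, against 590, 593 and 607 CPM in WT (log2 fold change -0.73, SE 0.21, edgeR adjusted p = 0.0251). The acyl-ACP desaturase gene had 13.1, 9.98 and 7.99 reads per omega-3 desaturase read in the OX-labelled libraries, against 11.6, 11 and 10.3 in WT, so this ratio overlapped. The second gene called lower, COCSUDRAFT_29437, carries the name of a cytochrome P450 that acts on sterols and not on fatty acids (log2 fold change -0.56, SE 0.18, edgeR adjusted p = 0.0434). Neither lower call held without OX-labelled replicate 1 or without any single WT replicate, where the adjusted p ran from 0.067 to 0.0721 for the omega-3 gene and from 0.0893 to 0.134 for the P450 gene (edgeR).

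The desaturases that add a second double bond did not pass. Delta12 fatty acid desaturase COCSUDRAFT_53798, which acts on an oleoyl chain, had 363, 375 and 330 CPM in the OX-labelled libraries, against 324, 355 and 353 CPM in WT (log2 fold change 0.05, SE 0.17). The groups overlapped, and its sign turned with library size only as scaling and without WT replicate 1. The chloroplast w6 desaturase COCSUDRAFT_14906, which does this on plastid lipids and was picked for that role after its values were seen, had 122, 145 and 190 CPM in the OX-labelled libraries, against 162, 159 and 178 CPM in WT. Its log2 fold change of -0.13 (SE 0.19) turned positive without OX-labelled replicate 1. The most heavily read of the unspecified fatty acid desaturase domain genes, COCSUDRAFT_27077, had 423, 609 and 489 CPM in the OX-labelled libraries, against 655, 575 and 504 CPM in WT, again with overlap. A further gene with that domain name, COCSUDRAFT_47044, was the one called higher, at 36.7, 43.5 and 37.2 CPM in the OX-labelled libraries, against 3.22, 3.37 and 1.26 CPM in WT (log2 fold change 3.86, SE 0.31, edgeR adjusted p = 1.47e-05). Even so, in the OX-labelled libraries it stayed far below the acyl-ACP desaturase gene per span, at 19.3 TPM against 1361 TPM.

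Ferredoxin and the enzymes around it were listed to stand for the electron supply of the desaturase. This list goes by product name, and whether its members serve the desaturase in the plastid was not tested. Of 10 tested genes with ferredoxin in their name, 5 were called higher, 0 lower and 5 did not pass, with a median log2 fold change of 0.58, against 15.6% higher among all tested genes. As lower, 0 had an unadjusted p under 0.05 in edgeR, and DESeq2 and limma-voom also called 0. Ferredoxin-NADP reductase COCSUDRAFT_54553, which exchanges electrons between ferredoxin and NADPH, had 1805, 1383 and 1434 CPM in the OX-labelled libraries, against 829, 983 and 868 CPM in WT (log2 fold change 0.79, SE 0.18, edgeR adjusted p = 0.00908). It did not pass without WT replicate 1 (edgeR adjusted p = 0.0673) or WT replicate 3 (edgeR adjusted p = 0.0558). The ferredoxin with most reads, COCSUDRAFT_25236, had 1494, 1387 and 1647 CPM in the OX-labelled libraries, against 1171, 1256 and 1315 CPM in WT, and did not pass (log2 fold change 0.28, SE 0.17, edgeR adjusted p = 0.254). The ferredoxin reductase-like gene COCSUDRAFT_33121 rose by 1.05 on the log2 scale (SE 0.20) and the 2Fe-2S domain gene COCSUDRAFT_18627 by 1.29 (SE 0.21). The list also holds a bilin reductase, which uses ferredoxin but does not supply it, and the higher calls numbered 3 without WT replicate 1 and 3 without WT replicate 3.

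The finished chain is released, activated and placed in lipids. Of 8 tested genes for acyl release and activation, 1 was called higher and 0 lower, against 15.6% and 8.98% among all tested genes (0 lower by DESeq2 and at an unadjusted p under 0.05 in edgeR as well). The one called was a long-chain fatty acid CoA ligase, COCSUDRAFT_12949, at 149 ± 22.3 CPM in the OX-labelled libraries and 80.7 ± 11.1 CPM in WT (SD, n = 3 each). That list also took in protein and ubiquitin thioesterases by name. Of 12 tested genes for glycerolipid assembly, 0 were called in either direction (edgeR). Of these, 3 had an unadjusted p under 0.05 in the edgeR test, and DESeq2 and limma-voom called 0. In edgeR, 1 of them was called higher when OX-labelled replicate 3 was left out. The monogalactosyldiacylglycerol synthase COCSUDRAFT_35261, which makes the main lipid of thylakoids, had 223, 314 and 185 CPM in the OX-labelled libraries, against 366, 339 and 295 CPM in WT, which overlap. That gene did not pass with all libraries (log2 fold change -0.47, SE 0.21, edgeR adjusted p = 0.127), but passed without OX-labelled replicate 2 (edgeR adjusted p = 0.027). The chloroplast glycerol-3-phosphate acyltransferase COCSUDRAFT_31435, which attaches the first chain in plastid lipids, had 111 ± 16.1 CPM in the OX-labelled libraries and 80.9 ± 3.74 CPM in WT (SD, n = 3 each) and did not pass.

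Of 23 tested genes named for sources of acetyl-CoA, 3 were called higher and 1 lower, against 15.6% and 8.98% among all tested genes. These names cover mitochondrial and cytosolic enzymes as well as plastid ones. An ATP citrate synthase, COCSUDRAFT_53011, which makes acetyl-CoA in the cytosol, was higher (log2 fold change 1.40, SE 0.20, edgeR adjusted p = 0.000635). The acetyl-CoA synthetase-like gene COCSUDRAFT_45744 fell by 1.19 (SE 0.27, edgeR adjusted p = 0.00753). For each of its reads there were 10.8, 26.2 and 22.1 desaturase reads in the OX-labelled libraries, against 13.9, 15.4 and 12.6 in WT, which overlap. Of 14 tested genes for very long chain elongation, 3 were called higher and 0 lower, against 15.6% and 8.98% among all tested genes. As lower, 1 had an unadjusted p under 0.05 in edgeR, and DESeq2 called 0. The one with most reads, 3-ketoacyl-CoA synthase COCSUDRAFT_26029, averaged 1835 ± 243 CPM in the OX-labelled libraries and 1673 ± 88.7 CPM in WT (SD, n = 3 each), with overlap, and thus fewer reads than the desaturase gene in each group. Of the 3 called higher, fatty acid elongase COCSUDRAFT_48328 stood at 125, 110 and 89.3 CPM in the OX-labelled libraries, against 2.21, 2.74 and 2.02 CPM in WT (log2 fold change 5.52, SE 0.26, edgeR adjusted p = 5.2e-07).

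The genes beside the desaturase gene on its scaffold had log2 fold changes of both signs. Gene order was taken from the annotation named above. The nearest tested gene before it, aromatic amino acid decarboxylase COCSUDRAFT_24164, had 158, 284 and 230 CPM in the OX-labelled libraries, against 92.3, 91.8 and 103 CPM in WT (log2 fold change 1.23, SE 0.22, edgeR adjusted p = 0.0021). The nearest after it, COCSUDRAFT_24168, with an EF-hand, a calcium-binding fold, had 406, 431 and 164 CPM in the OX-labelled libraries, against 191, 206 and 187 CPM in WT. Its groups overlapped because of OX-labelled replicate 3, without which it passed (log2 fold change 1.10, edgeR adjusted p = 4.73e-05), against 0.78 and an edgeR adjusted p = 0.073 with all libraries.

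The uncharacterized gene COCSUDRAFT_55919 was called higher, with 7.65 ± 1.89 CPM in the OX-labelled libraries and 1.35 ± 0.389 CPM in WT (SD, n = 3 each). The aminopeptidase gene COCSUDRAFT_33457 (log2 fold change -0.31, SE 0.36), the uncharacterized gene COCSUDRAFT_55925 (0.37, SE 0.17) and the NEDD8-activating enzyme gene COCSUDRAFT_53737 (0.34, SE 0.18) did not pass. At the fifth place before it, and named here after its value was seen, mitochondrial chaperonin 60 COCSUDRAFT_36959 was lower by a similar amount to the desaturase gene (log2 fold change -1.05, SE 0.22, edgeR adjusted p = 0.00598). Over the 20 nearest tested genes 4 were called higher and 1 lower, with a median log2 fold change of 0.31, against 15.6% higher and 8.98% lower among all tested genes. Over the other 388 tested genes of the scaffold 56 were called higher and 23 lower, with a median of 0.07, and 12 lay below the desaturase gene. No tested gene of the scaffold apart from it had a mean above 1591 CPM in the OX-labelled libraries or 1582 CPM in WT.

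**Figure D4:**
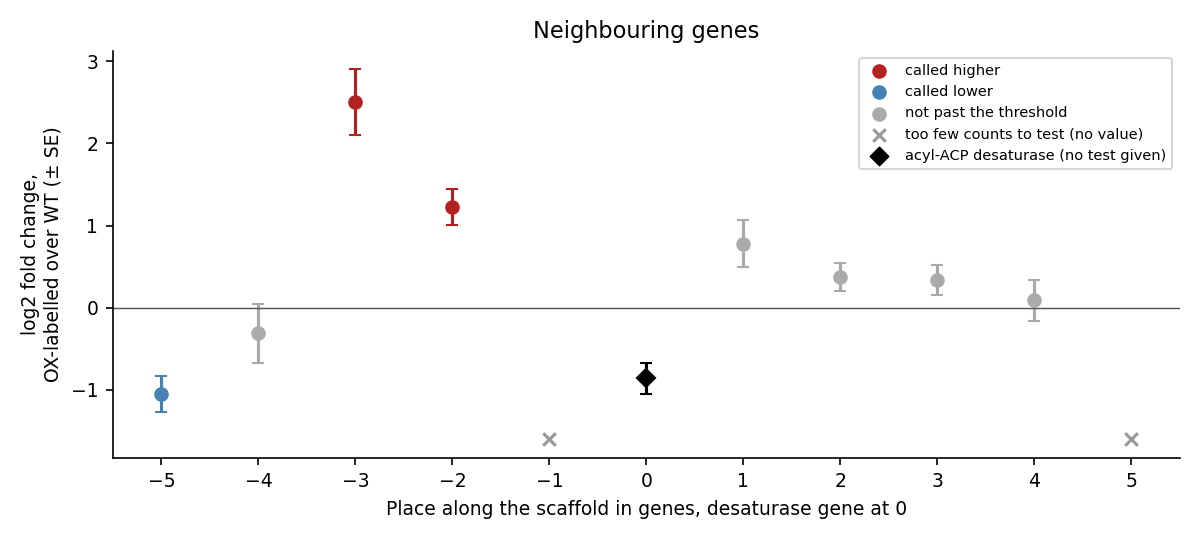
Log2 fold change (OX-labelled over WT, ± SE) of the 5 genes on each side of the acyl-ACP desaturase gene, by place in gene order, with crosses at the foot for the 2 genes with too few counts to test. The desaturase gene at -0.86 lies between neighbours at 1.23 and 0.78.

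Genes with the most similar profile over the 6 libraries were found by the root mean square difference of log2 CPM after centring each gene on its own mean, among 4249 tested genes with at least 50 CPM on average. The distance to the desaturase gene was 0.0397 for the nearest and 0.489 at the median. All 5 nearest had an informative product name. The nearest was riboflavin kinase COCSUDRAFT_53673, which makes the flavin cofactor FMN, at 49.4, 63.2 and 44.8 CPM in the OX-labelled libraries, against 97.9, 93.3 and 96.8 CPM in WT. The sugar nucleotide epimerase COCSUDRAFT_52441 followed at a distance of 0.0633, at 463, 565 and 416 CPM in the OX-labelled libraries, against 907, 808 and 763 CPM in WT. Cytochrome b5 COCSUDRAFT_31572, a small haem protein that carries electrons, was at 0.0703, at 279, 340 and 259 CPM in the OX-labelled libraries, against 590, 521 and 466 CPM in WT.

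The last of the 5 were a WD40 repeat-like gene, COCSUDRAFT_29904, at 0.0781, and a subunit of a DNA-directed RNA polymerase, COCSUDRAFT_17601, at 0.0787. Like the desaturase gene, each had its highest OX-labelled value in replicate 2 and its lowest in replicate 3. The genes were picked for this likeness, so it carries no test, and which genes came nearest changed with the libraries used. With 1 library left out in turn, 1 to 3 of these 5 were still among the 5 nearest. Of the genes in the fatty acid lists, the nearest was the P450 gene COCSUDRAFT_29437, at a distance of 0.166 in place 120. Its name is that of an enzyme for sterols and not for fatty acids. Next came the ACP gene COCSUDRAFT_52715 at 0.184 in place 165. COCSUDRAFT_35261 followed at 0.211 in place 241 and the omega-3 desaturase at 0.218 in place 270.

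**Figure D5:**
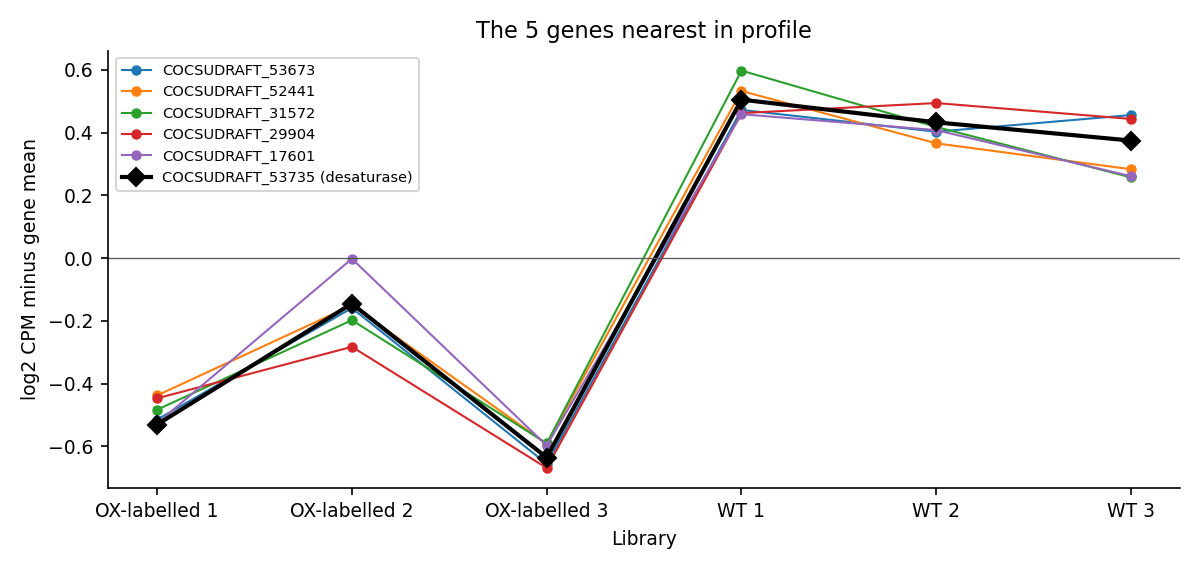
Log2 CPM of the acyl-ACP desaturase gene (black) and the 5 genes nearest to it in profile, each minus its own mean over the 6 libraries. Lines join libraries only to show which points belong to 1 gene, and in each gene the OX-labelled libraries lie below the WT libraries with replicate 2 the highest of the OX-labelled.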

How the data were processed

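The authors deposited 1 table per library of raw counts per gene, not normalized. Reads were trimmed, mapped and counted with tools that the submitters' processing notes list as Trim Galore, HISAT and HTSeq, with FastQC and no versions. The library kit was directional, per the labels' protocols. Genome build, strand setting and treatment of multiply matching reads: not given in the sources used here. Genes that overlap or lie antisense may therefore share reads. Gene order and gene span came from RefSeq assembly GCF_000258705.1, with 9915 genes, in which each of the 9490 locus tags was found. No sequence of the gene was used here.

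Counts were fitted with edgeR 4.0.16 in R 4.3.3 (filterByExpr, 8575 genes; TMM; robust quasi-likelihood F test, two-sided; Benjamini-Hochberg over all genes tested; threshold 0.05). SE was obtained by dividing the log2 fold change by the square root of F. Levels are mean ± SD over 3 libraries, and 95% intervals are exact (Clopper-Pearson) and cover counting error only. Between 2 libraries, chi-square per degree of freedom was at least 6.97, so none was counted as a repeat. Gene, lists and naming rule were chosen with earlier results of these data known. Lists follow product name patterns. Named genes were the most abundant per span and those with the lowest p in each list, the 3 nearest tested neighbours on each side, the genes next in rank and the 5 nearest in profile, of which the text names part. Replicate numbers were not taken as pairs. Alternatives were other scalings, no filter, DESeq2 1.42.0, limma-voom (limma 3.58.1), the replicate block, each library left out and a stricter threshold. The script was tested on simulated data.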

Additional observations from a re-analysis of the deposited data

How the results depend on the processing

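The log2 fold change of the desaturase gene stayed negative in all 13 other fits, from -0.93 to -0.87 over 7 other scalings, filters, tools and the block, and from -1.02 to -0.76 with 1 library left out. Its rank by read count was the same with library size only, but per kilobase of gene span it was 79 in the OX-labelled group and 19 in WT, in place of 8 and 2.

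Genes called higher ranged from 737 to 1627 and genes called lower from 313 to 1232 with 1 library left out, and at an adjusted p under 0.01 they were 760 and 206 (edgeR). List members called higher ranged from 8 to 17 and lower from 1 to 6 with 1 library left out, with 1 lower at 0.01. DESeq2 called 13 list members higher and 6 lower. With the largest difference as distance, 2 of the 5 nearest genes were shared, or 3 among informative names, and with 1 library left out 1 to 3 in the set of any name and 1 to 4 in the set of informative names. Smaller fold changes of the opposite sign, none past the threshold, were -0.02 (library size only) and -0.03 (without WT replicate 1) for COCSUDRAFT_53798, and 0.01 for COCSUDRAFT_14906 without OX replicate 1 (from -0.32 to 0.01 with 1 library left out). For COCSUDRAFT_53954 they were -0.05 (library size only), -0.01 (upper quartile), -0.01 (no filter), -0.08, -0.04 and -0.04 (without OX replicate 1, WT replicate 1 and WT replicate 3), in a range from -0.08 to 0.08. For COCSUDRAFT_33457 it was 0.07 without OX replicate 3 (range from -0.65 to 0.07), and for COCSUDRAFT_52570 -0.15 without OX replicate 2 (range from -0.15 to 0.47). The cause was not tested. Over 40 other named genes and 13 settings, 477 of 520 values kept sign and side of the threshold, 19 no longer passed and 13 newly passed.

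Same-numbered libraries had correlations of deviations of -0.165, 0.153 and 0.0628, within the -0.314 to 0.277 of differently numbered ones. The numbers thus gave no sign of pairing, and whether same-numbered cultures shared a batch was not tested. With the replicate block, the fold change of the desaturase gene was -0.87, 1297 genes were higher and 801 lower, and 12 list members were higher and 5 lower. OX and WT libraries did not all correlate best with their own number. With 3 libraries a group, an exact permutation test cannot go below 0.1.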
